A study of Mus musculus with 2 samples.

Results

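Chondrocytes, the cells that build cartilage, were examined in droplet single-cell RNA libraries of embryonic mouse limbs. A barcode (a droplet taken as 1 cell) was kept if 500 genes or more were detected in it and mitochondrial RNA made up under 10% of its UMIs, a UMI being a molecular tag that counts each captured RNA molecule once. Chondrocytes were chosen by their raw counts of cartilage genes: a kept barcode was taken as one if at least 4 of 8 cartilage genes, termed the rule genes (Matn1, Matn4, Acan, Hapln1, Col9a1, Col9a3, Cnmd and Snorc), had at least 1 UMI. This chose 1912 of 16377 kept barcodes (18721 were deposited), of which 1687 came from E12.5 (E stands for embryonic day) and 225 from E15.5. The chosen barcodes are termed members. Because the rule reads the expression of these cells, their cartilage genes are given as a description, and no test was made of members against other barcodes.

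In the limb, long bones begin as cartilage models. Mesenchymal cells condense, switch on the transcription factor Sox9 with its partners Sox5 and Sox6, and secrete a matrix of type II, IX and XI collagens and of the proteoglycan aggrecan, whose chondroitin sulphate chains hold water. Chondrocytes in the middle of each model then stop dividing, pass through a prehypertrophic stage that secretes Indian hedgehog (Ihh), and become hypertrophic cells that make type X collagen, while cells at the ends form joints and articular cartilage.

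Both libraries came from wild-type (WT) C57Bl/6 embryos, 1 library for E12.5 and 1 for E15.5, and each mixed tissue of forelimbs and hindlimbs. The labelled tissue was limb skeletal muscle, and how cartilage cells came to be in it is not stated. Barcodes with at least 3 of 8 muscle markers numbered 313 of 12271 kept at E12.5 against 378 of 4106 at E15.5. This count depends on depth, and these barcodes had medians of 4620 and 15090 UMIs. The number of embryos behind a library is not given in the sources used here, and barcodes with either male or female transcripts occurred in both libraries. With 1 library per age there is no replicate and no p-value. All intervals are 95% intervals for counting error alone, and differences of age, embryo, dissection and library cannot be told apart.

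The deposited totals were 34907675 UMIs over 12941 barcodes at E12.5 against 46966083 UMIs over 5780 barcodes at E15.5. Members had a median of 2910 UMIs at E12.5 against 7762 at E15.5, and the other kept barcodes had 2386.5 and 9648. The lowest member held 749 UMIs at E12.5 against 2230 at E15.5, and the highest 14246 and 43874. Levels are given as CPM, the members' summed UMIs of a gene scaled to a common total of all their UMIs, with 5606851 UMIs behind E12.5 and 2075481 behind E15.5. Of the barcode sequences, 17 occurred in both libraries, and 3 of these were members in at least 1 library.

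Members made up 13.7% of kept barcodes at E12.5 (exact binomial interval 13.1 to 14.4%) against 5.48% at E15.5 (4.80 to 6.22%). The difference was -8.27 percentage points (Newcombe interval -9.17 to -7.32). The rule finds more genes in a deeper barcode, so all kept barcodes were also thinned at random to 2000 UMIs, which left out 4059 shallower barcodes of E12.5 and 272 of E15.5. At this equal depth the rule chose 1008 of 8212 barcodes (12.3%) and 104 of 3834 (2.71%), a difference of -9.56 points (-10.4 to -8.67). The share was lower at E15.5 by both counts. A share of captured barcodes depends on the dissection and on how well cells come apart, and neither was measured.

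The rule genes themselves, in the order of their products' roles, were not detected alike at both ages. Of the fibrillar network's companions, the collagen IX chains Col9a1 and Col9a3 had a UMI in 94.8% and 93.7% of members at E12.5 against 89.8% and 97.8% at E15.5. The proteoglycan aggrecan (Acan) was detected in 75.7% and 81.8%, and its link protein Hapln1 in 52.6% and 58.2%. Matn1 and Matn4 encode matrilins, adaptor proteins of the matrix. Matn4 was detected in 85.3% and 84.4% of members, whereas Matn1 was detected in 66.1% at E12.5 against 28.4% at E15.5. Cnmd, which encodes chondromodulin, an inhibitor of vessel growth, went the other way, from 56.8% to 89.8%. Snorc, a small membrane proteoglycan of cartilage, had a UMI in 13.9% and 16.0% of members.

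The label was checked on a gene the rule did not read, and at E15.5 the outcome depended on the number of rule genes. Col2a1, the type II collagen gene (GRCm38, chr15:97975602-98004695, minus strand), is the defining gene of cartilage. It stood at 3566 CPM in members at E12.5 against 3409 CPM at E15.5. Per member, the 10th percentile, median and 90th percentile of Col2a1 were 1184, 3404 and 6783 CPM at E12.5, and 174, 2156 and 10330 CPM at E15.5. The E15.5 members thus reached both lower and higher values than the E12.5 members.

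Members with 4 or 5 rule genes and members with 6 to 8 showed where this spread lay. At E12.5 the 957 members with 4 or 5 rule genes had 2617 CPM of Col2a1, and the 730 members with 6 to 8 had 4601 CPM. At E15.5 the 130 members with 4 or 5 had 1022 CPM (1216 UMIs), and the 95 members with 6 to 8 had 6618 CPM (5860 UMIs). Those 130 members had more Col1a1, the type I collagen gene of fibrous tissue (2707 CPM), than Col2a1. The 95 members had far less Col1a1 (1506 CPM) than Col2a1. The chondrocyte name is thus less well borne out for the 130, which are most of the E15.5 members. Matn1, at E15.5, stood at 3.36 CPM in members with 4 or 5 rule genes and at 864 CPM in those with 6 to 8. The E12.5 values were 259 and 877 CPM. Matn1 is itself a rule gene, so its difference between these sets partly follows from how they were made. At the edge of the rule, the 543 members with exactly 4 rule genes at E12.5 had 2327 CPM of Col2a1, and the 985 kept barcodes with 3 had 1608 CPM. At E15.5 the 69 members with exactly 4 had 575 CPM and the 104 barcodes with 3 had 310 CPM.

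Schwann and immune markers were lower with more rule genes at E15.5, and other markers were not. With 4 or 5 and with 6 to 8 rule genes, Schwann markers summed to 721 and 20.3 CPM, and immune markers to 54.6 and 7.90 CPM. Muscle (11.8 and 18.1 CPM), endothelial (17.6 and 27.1), epithelial (15.1 and 20.3) and erythroid markers (133 and 4288) were higher with 6 to 8. At E12.5 the Schwann sum went the other way (53.7 and 129 CPM). Ednrb, an endothelin receptor of neural crest cells, stood at 240 CPM in E15.5 members with 4 or 5 rule genes and at 2.26 CPM in those with 6 to 8. Foxd3, a neural crest factor, had 1 UMI in E12.5 members and 87 in 14 E15.5 members. Of the 106 barcodes with at least 3 Schwann markers at E15.5, 14 were members (6.22% of the members). Over the muscle, endothelial, immune, erythroid, Schwann and epithelial marker classes, 34 of 225 members (15.1%) met at least 1 class at E15.5 and 52 of 1687 (3.08%) at E12.5. The connective tissue class (3 or more of Osr1, Osr2, Pdgfra, Dcn, Lum, Twist2, Prrx1 and Meox2) was met by 339 members at E12.5 (20.1%) against 86 at E15.5 (38.2%). The osteoblast genes Bglap, Bglap2 and Dmp1 had no UMI in members at either age. The part of these cells in the age differences was not tested, and values without them, or with at least 6 rule genes, stand beside the results they move.

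**Figure D1:**
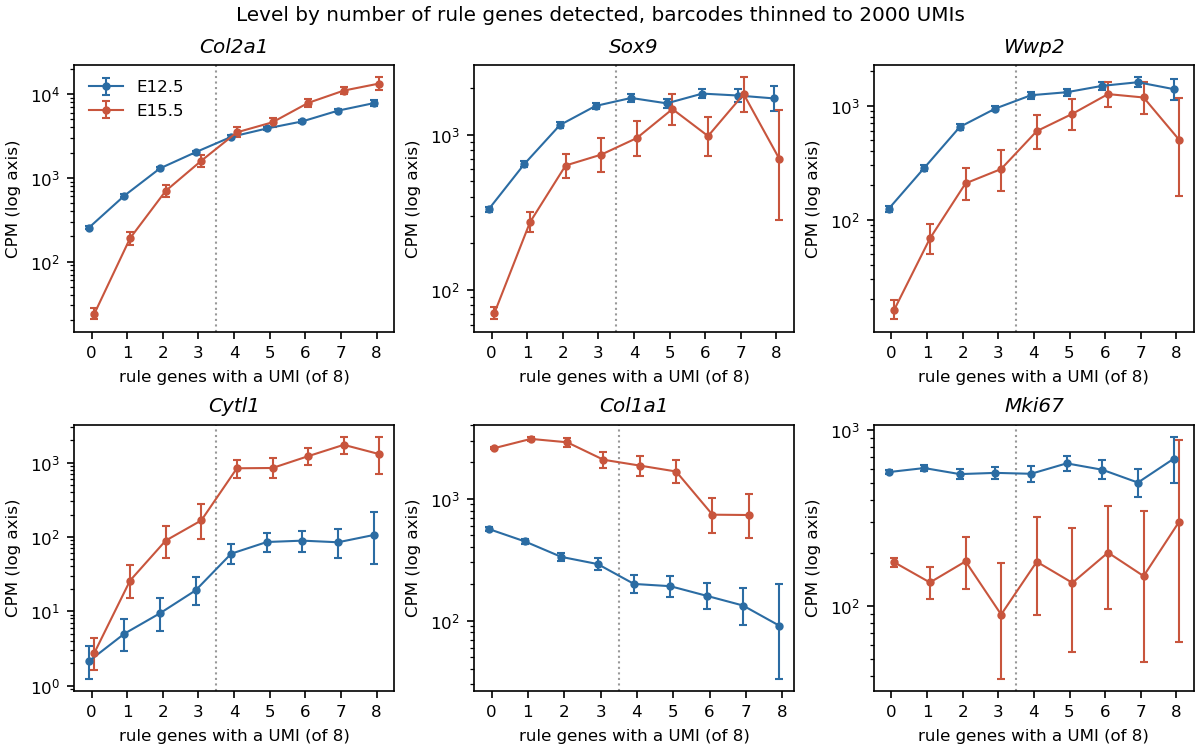
Level of 6 genes outside the rule (CPM, log axis) by the number of rule genes with a UMI, in kept barcodes thinned to 2000 UMIs at E12.5 (blue) and E15.5 (red). Points are summed levels, bars are Poisson counting intervals, groups with no UMI are not drawn, and the dotted line marks the rule. With 4 rule genes Col2a1 stood at 3087 CPM at E12.5 against 3500 CPM at E15.5, while Sox9 and Wwp2 lay lower at E15.5 and Cytl1 and Col1a1 higher.

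In thinned barcodes with exactly 4 rule genes, Col2a1 stood at 3087 CPM at E12.5 (345 barcodes) against 3500 CPM at E15.5 (31 barcodes). The rule genes were counted again after thinning, which left 104 E15.5 members in place of 225, so these sets hold different barcodes. The low Col2a1 of the E15.5 members with few rule genes was not seen in this smaller set. Whether those same members stay low at equal depth was not tested. A Col2a1 UMI was found in 99.4% of thinned members at E12.5 against 99.0% at E15.5.

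Cell classes that should lack cartilage genes were read for free cartilage RNA in each library. Barcodes of these classes that were also members were left out. At E12.5 Col2a1 stood at 92.3 CPM in the muscle class, 80.7 CPM in the endothelial class and 112 CPM in the immune class. At E15.5 these values were 2.58, 4.42 and 4.12 CPM. After thinning, 14.0% of muscle class barcodes at E12.5 against 0.533% at E15.5 had a Col2a1 UMI, from median depths of 4588 and 15095 UMIs before thinning. Other kept barcodes had a Col2a1 UMI in 49.3% at E12.5 against 7.83% at E15.5 after thinning. The other barcodes at E12.5 thus held cartilage RNA far more often than those at E15.5, and above the share in the muscle class at both ages. How much of this is free RNA and how much lies in cells with some cartilage genes was not tested.

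Between ages, 8986 genes passed a mean of at least 10 CPM in members, and a gene was counted as changed if its CPM differed at least 2-fold. Of these genes 616 (6.86%) were higher at E15.5 and 1252 (13.9%) were lower. The median gene had a log2 ratio (E15.5 over E12.5) of -0.30 in members, -0.32 in the other kept barcodes and -0.34 in connective class barcodes outside the members. Relative to that median, 1015 genes were higher and 568 lower, so the balance of the directions depends on the scaling. Log2 ratios are given unshifted, and are larger by 0.30 relative to the median gene.

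The matrix genes outside the rule differed little in summed level over all members, and a few of them were much higher at E15.5. Of 16 such genes, all of which passed the filter, 4 were at least 2-fold higher at E15.5 (against 6.86% of all genes), 1 was at least 2-fold lower, and the median log2 ratio was 0.26. Their summed level was 8910 CPM at E12.5 against 9455 CPM at E15.5, with a log2 ratio E15.5 over E12.5 of 0.09 (0.06 to 0.11). In other kept barcodes the same list stood at 1469 and 480 CPM, a ratio of -1.61. Within members the sum depended on the number of rule genes. It was lower at E15.5 with 4 or 5 rule genes (-0.72, -0.77 to -0.67) and higher with 6 to 8 (0.54, 0.51 to 0.57). With all barcodes thinned to 2000 UMIs the ratio was 0.66.

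The fibril-forming and fibril-bound collagens lay close together between ages. Col2a1 had a log2 ratio of -0.06 (-0.10 to -0.03), Col11a1 of -0.07 (-0.11 to -0.02), Col11a2 of -0.17 (-0.30 to -0.05) and Col9a2 of 0.01 (-0.08 to 0.10). Col27a1, a fibrillar collagen of cartilage, stood at 264 and 191 CPM (-0.47, -0.63 to -0.31). The near-level sums of Col2a1, Col11a1, Col11a2 and Col9a2 hid opposite ratios in the members with few and with many rule genes. Col27a1 was lower with 4 or 5 rule genes (-1.09) and near level with 6 to 8 (-0.03, -0.24 to 0.16). Col11a2 was lower at E15.5 among members with 4 or 5 (209 and 51.3 CPM, ratio -2.03) and slightly higher among those with 6 to 8 (517 and 671 CPM, ratio 0.38). Susd5, a membrane protein gene that was among those most enriched in members, was lower with 4 or 5 (-2.06). It was near level with 6 to 8 (0.06, -0.17 to 0.29).

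Among the rule genes, Matn1 stood at 554 CPM at E12.5 against 371 CPM at E15.5 (-0.58), Matn4 at 643 and 394 CPM (-0.71), Acan at 603 and 535 CPM (-0.17) and Hapln1 at 455 and 369 CPM (-0.30). Col9a1 stood at 1321 and 874 CPM (-0.60), Col9a3 at 934 and 1154 CPM (0.31), Cnmd at 319 and 581 CPM (0.86) and Snorc at 64.2 and 151 CPM (1.24). Snorc was the 1 rule gene past 2-fold. In members with 6 to 8 rule genes Matn1, Hapln1 and Col9a1 lay within 0.10 of no change on the log2 scale, while Cnmd stood at 410 and 917 CPM and Snorc at 125 and 352 CPM. That set is chosen by these same genes, so their levels within it are partly fixed by the choice and are only a description.

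**Figure D2:**
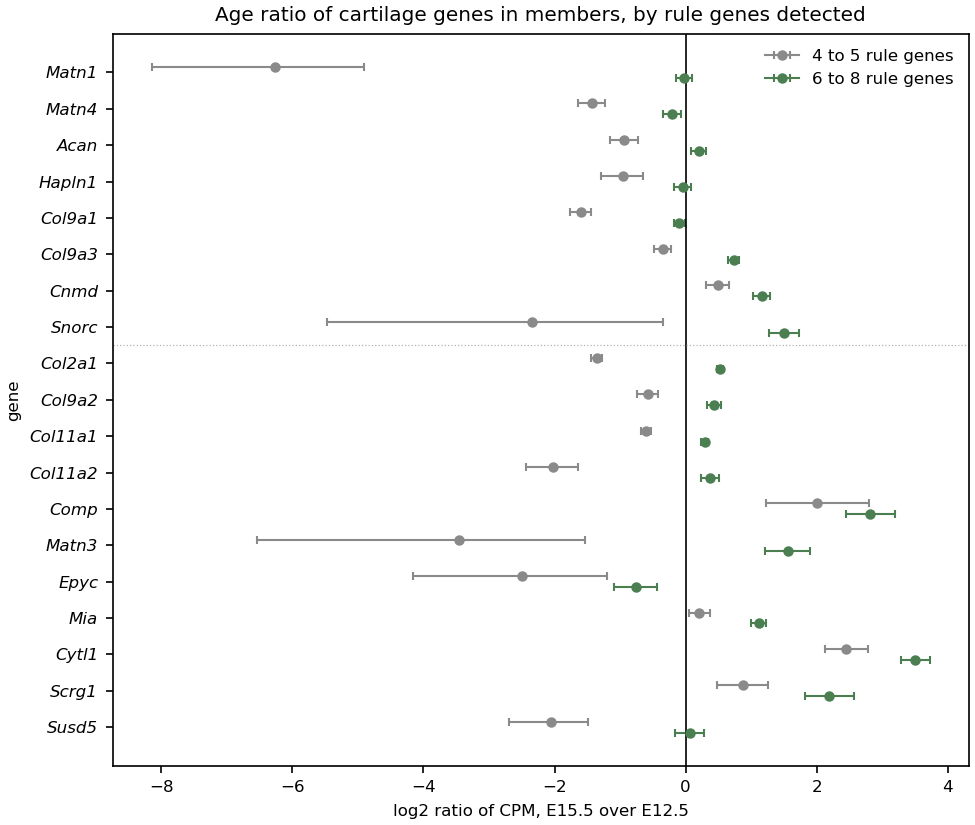
Log2 ratio of CPM, E15.5 over E12.5, for the 8 rule genes (above the dotted line) and 11 other cartilage genes in members with 4 or 5 rule genes (grey) and with 6 to 8 (green). Bars are counting intervals. Matn1 lies at -6.27 in the first group and at -0.02 in the second, while Comp and Cytl1 lie above 0 in both. The groups are made by counting the rule genes, so the ratios of those genes partly follow from the grouping.

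Cytl1, which encodes a secreted cytokine-like protein made by chondrocytes, was much higher at E15.5. It held 326 UMIs (58.1 CPM) in E12.5 members and 1044 UMIs (503 CPM) in E15.5 members, a log2 ratio of 3.11 (2.93 to 3.30). In other kept barcodes it stood at 3.68 and 3.74 CPM. After thinning, 12.2% of E12.5 members (10.2 to 14.4%) and 68.3% of E15.5 members (58.4 to 77.1%) had a Cytl1 UMI, against 0.972% and 1.23% of other barcodes. It stood at 39.3 and 215 CPM in members with 4 or 5 rule genes and at 78.7 and 890 CPM in those with 6 to 8, so both sets were higher at E15.5.

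Comp, the cartilage oligomeric matrix protein that binds collagen fibrils, stood at 20.3 and 119 CPM (2.56, 2.23 to 2.89), and its 5 highest E15.5 members held 40.7% of its UMIs. Scrg1, a small secreted protein gene, stood at 41.4 and 121 CPM (1.55, 1.28 to 1.81). Ucma, a secreted cartilage protein whose name refers to its unique place in the cartilage matrix, had 1 UMI in all E12.5 members and 61 UMIs in 24 E15.5 members, with 21 of them in 1 member. Matn3, another matrilin, stood at 35.1 and 67.9 CPM (0.95, 0.63 to 1.27), and Mia, a small secreted protein of chondrocytes, at 411 and 681 CPM (0.73, 0.63 to 0.83). Epyc, a small leucine-rich proteoglycan of growth cartilage, was the matrix gene that was at least 2-fold lower, at 94.5 and 45.8 CPM (-1.05, -1.38 to -0.73). It was -0.79 without the members that met another marker class, and so within 2-fold.

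Sequence upstream of the start site is shown for 3 of these genes that differ in their age pattern: Matn1, a rule gene near level in members with many rule genes, Cytl1, a matrix gene that was much higher at E15.5, and Epyc, which was lower at E15.5. Each run is the 250 bases before a RefSeq start site (GRCm38.p6, plus strand), and capitals mark the core letters ACAAAG or ACAATG, on either strand, of the motif that SOX proteins bind.
Matn1 (chr4:130944135-130944384): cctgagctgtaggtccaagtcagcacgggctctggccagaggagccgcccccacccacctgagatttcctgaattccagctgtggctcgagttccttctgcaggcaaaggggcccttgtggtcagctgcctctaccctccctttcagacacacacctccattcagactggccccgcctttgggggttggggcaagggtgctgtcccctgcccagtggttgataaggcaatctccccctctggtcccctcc
Cytl1 (chr5:37735269-37735518): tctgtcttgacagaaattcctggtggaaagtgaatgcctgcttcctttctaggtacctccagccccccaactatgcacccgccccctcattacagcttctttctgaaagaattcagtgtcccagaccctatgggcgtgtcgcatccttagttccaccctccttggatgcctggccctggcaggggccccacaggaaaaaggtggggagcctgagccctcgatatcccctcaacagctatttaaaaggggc
Epyc (chr10:97646853-97647102): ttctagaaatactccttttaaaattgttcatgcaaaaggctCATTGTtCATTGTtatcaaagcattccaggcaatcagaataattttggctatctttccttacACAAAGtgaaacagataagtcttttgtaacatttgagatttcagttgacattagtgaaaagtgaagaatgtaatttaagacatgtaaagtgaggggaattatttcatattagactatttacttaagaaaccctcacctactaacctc
The Epyc window shown held 3 matches, starting 209, 202 and 147 bases before the start site, and the Matn1 and Cytl1 windows held none. Epyc has 2 windows, and the one not shown held 1 match, 237 bases before its start site. Among windows of 300 bases (250 before and 50 after the start), 0 of the 6 rule genes found in the RefSeq table and 2 of 13 other matrix genes (Epyc and Chadl) held the SOX letters, against 31.7% of all 27025 genes in the table. The letters TATAAA, read on the strand of the gene, occurred in 0 of 6 rule genes and 2 of 13 matrix genes (Chad and Col11a2), against 9.77% of all genes. These are letter matches and say nothing of binding.

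Sox9, Sox5, Sox6 and several other transcription factors of chondrogenesis were lower at E15.5. Of 17 genes on the list 14 passed the filter, and 7 of these were at least 2-fold lower (against 13.9% of all genes), 7 lay within 2-fold and 0 were higher by that much. Their median log2 ratio was -1.15. Sox9, the factor required for cartilage formation, stood at 1590 CPM at E12.5 against 879 CPM at E15.5 (-0.86, -0.93 to -0.78). Its partners Sox5 and Sox6 stood at 484 and 175 CPM (-1.47, -1.63 to -1.31) and at 356 and 99.7 CPM (-1.83, -2.05 to -1.63). Wwp2, a ubiquitin ligase gene whose product acts with SOX9, stood at 1221 and 464 CPM (-1.39, -1.49 to -1.30).

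All 4 genes were lower at E15.5 in both sets of members, but by less in those with 6 to 8 rule genes. Sox9 was -1.19 with 4 or 5 and -0.51 with 6 to 8, Sox5 -1.91 and -1.06, Sox6 -2.33 and -1.37, and Wwp2 -2.31 and -0.76. In thinned members Wwp2 was -0.58. In other kept barcodes these genes were lower by more than in members, with Sox9 at 588 and 68.1 CPM (-3.11), Sox5 at -3.64, Sox6 at -3.55 and Wwp2 at -3.79. The ratio of members over others in Sox9 was therefore 1.43 at E12.5 against 3.69 at E15.5 on the log2 scale.

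Runx2 and Runx3, which drive chondrocyte maturation, stood at 236 and 35.7 CPM (-2.73, -3.09 to -2.39) and at 129 and 25.1 CPM (-2.37, -2.80 to -1.96). Shox2, a homeobox factor of proximal limb cartilage, stood at 528 and 69.9 CPM (-2.92, -3.17 to -2.68), and Dlx5 at 44.1 and 9.64 CPM (-2.19). Runx2 had like ratios with 4 or 5 rule genes (-2.56) and with 6 to 8 (-2.90). Mef2c (-0.90), Trps1 (-0.74) and Foxc1 (-0.58) lay within 2-fold, as did Zbtb20 and Barx1, whose intervals included 0. Runx1, a RUNX factor of early chondrocytes, was the gene of the list with the highest ratio among those that passed the filter, at 36.6 and 69.4 CPM (0.92, 0.61 to 1.24).

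**Figure D3:**
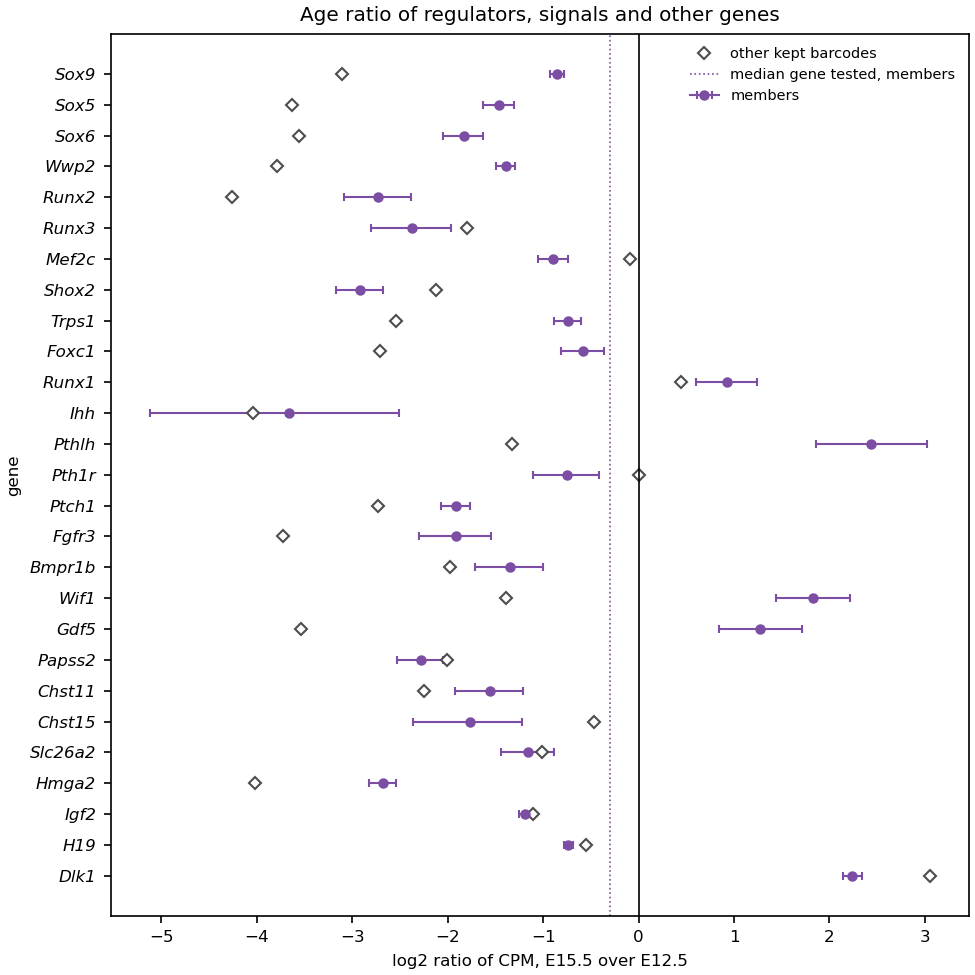
Log2 ratio of CPM, E15.5 over E12.5, for 27 regulator, signal, sulphation and growth genes in members (purple, with counting intervals) and in other kept barcodes (open diamonds). The dotted line is the median gene in members at -0.30. Sox9, Sox5, Sox6 and Wwp2 are lower in both and by more in other barcodes, while Pthlh, Wif1 and Gdf5 lie above 0 in members and under 0 in other barcodes.

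Signals of the growth plate differed in both directions. Of the 15 listed genes 13 passed the filter, with 4 at least 2-fold higher (Pthlh, Npr3, Gdf5 and Wif1, against 6.86% of all genes) and 5 at least 2-fold lower (Ihh, Ptch1, Fgfr3, Bmpr1b and Frzb, against 13.9%). Ihh, the ligand of prehypertrophic cells (GRCm38, chr1:74945315-74951672, minus strand), had 205 UMIs (36.6 CPM) in 148 E12.5 members and 6 UMIs (2.89 CPM) in 6 E15.5 members, a log2 ratio of -3.66 (-5.12 to -2.51). Ptch1, the hedgehog receptor and a target of the pathway, stood at 700 and 185 CPM (-1.92, -2.07 to -1.76). After thinning, Ihh was found in 81 of 1008 members (8.04%) at E12.5 against 0 of 104 at E15.5, where the exact binomial interval reaches 3.48%. It was found in 0.278% and 0.0268% of other barcodes.

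Pthlh, the ligand that holds chondrocytes in a dividing state, had 39 UMIs (6.96 CPM) in 34 members at E12.5 against 78 UMIs (37.6 CPM) in 41 members at E15.5 (2.43, 1.86 to 3.03). Its receptor gene Pth1r stood at 69.9 and 41.4 CPM (-0.75, -1.11 to -0.41). Wif1, a secreted Wnt inhibitor, stood at 17.8 and 63.1 CPM (1.82, 1.44 to 2.21), and Gdf5, the ligand that marks forming joints, at 17.3 and 41.9 CPM (1.28, 0.84 to 1.71). In other kept barcodes these genes were lower at E15.5 (Pthlh -1.33, Wif1 -1.39, Gdf5 -3.54). In thinned members Wif1 (0.84) and Gdf5 (0.95) lay within 2-fold. At equal depth the shares of members with a UMI were 1.09% and 8.65% for Pthlh, but 2.18% and 3.85% for Gdf5, with intervals that overlap (1.37 to 3.29% and 1.06 to 9.56%).

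Npr3, a clearance receptor for natriuretic peptides, was listed as higher (4.82 and 35.2 CPM, ratio 2.87). It stood at 60.5 CPM in E15.5 members with 4 or 5 rule genes and had 1 UMI in those with 6 to 8, and its ratio was -0.33 without the members of another marker class. Fgfr3, a receptor that restrains chondrocyte division, stood at 118 and 31.3 CPM (-1.91, -2.31 to -1.55). Bmpr1b, a BMP receptor, stood at 95.8 and 37.6 CPM (-1.35), and Frzb, a secreted Wnt antagonist, at 53.0 and 22.2 CPM (-1.26). Frzb was -0.17 in members with at least 6 rule genes. The joint list summed to 271 and 402 CPM (0.57), with Sfrp2 giving 52.5% of it at E12.5 against 67.1% at E15.5. The sum rose alike in connective class barcodes outside the members (279 and 429 CPM, 0.62), but not in other kept barcodes (-0.08). Of its 6 genes 5 passed the filter, with a median of 0.92. Of these, 2 were at least 2-fold higher (Gdf5 and Wnt9a, against 6.86% of all genes) and 1 lower (against 13.9%). The lower gene was Erg, a factor of articular chondrocytes (82.8 and 35.2 CPM, -1.23). Wnt9a, a Wnt ligand of forming joints, stood at 9.63 and 22.2 CPM (1.20) and was 0.38 with at least 6 rule genes. Sfrp2, a Wnt modulator, stood at 142 and 270 CPM (0.92).

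Prehypertrophic and hypertrophic genes had a lower summed level at E15.5. The sum of 12 genes stood at 892 CPM at E12.5 against 340 CPM at E15.5, with a log2 ratio E15.5 over E12.5 of -1.39 (-1.51 to -1.28), and 4 of the 6 that passed the filter (Ihh, Panx3, Runx2 and Runx3) were at least 2-fold lower, against 13.9% of all genes. The sum is mostly Mef2c and Runx2, with Mef2c giving 41.7% of it at E12.5 against 58.9% at E15.5. Panx3, a channel protein gene of prehypertrophic cells, had 128 UMIs at E12.5 against 12 at E15.5 (-1.98, -2.97 to -1.13). Sp7, the osterix gene of maturing chondrocytes and osteoblasts, had 90 and 2 UMIs. Col10a1, the defining collagen of hypertrophic cartilage, had 11 UMIs in 9 members at E12.5 against none at E15.5, where 3 counts would be 1.45 CPM. Mmp13, the collagenase of late hypertrophic cells, had none at E12.5 against 11 at E15.5, of which 10 lay in 1 member. Ibsp had 0 and 1 UMIs, and Spp1 31 and 24 from fewer member UMIs in all at E15.5. As CPM, Spp1 stood at 6.15 and 15.1 with 4 or 5 rule genes (1.30) and at 4.85 and 6.78 with 6 to 8 (0.48, -1.20 to 1.98). Alpl, also on the list, was higher at E15.5, on few UMIs. It stood at 2.39 and 10.1 CPM with 4 or 5 (2.08) and at 0.746 and 11.3 CPM with 6 to 8 (3.92). Col10a1, Mmp13 and Ibsp were thus at or near 0 in both libraries, while Spp1 and Alpl were low and not lower at E15.5.

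The Ihh-positive members of E12.5 formed a set with further genes of the same stage, although the splitting gene was chosen after its values were seen. They were 148 of 1687 members (8.77%), with a median of 3606 UMIs against 2872 in the rest. Panx3 stood at 83.5 CPM with and 15.6 CPM without an Ihh UMI, a log2 ratio of 2.42 (1.88 to 2.95). Sp7 stood at 56.8 and 11.2 CPM (2.34, 1.68 to 2.98), Mef2c at 890 and 310 CPM (1.52, 1.38 to 1.66), Pth1r at 154 and 59.9 CPM (1.36) and Runx3 differed by 1.11. Of the matrix genes, Matn3 (1.43) and the rule gene Hapln1 (1.55) were higher in these members. The rule gene Cnmd stood at 167 and 337 CPM (-1.01), Sfrp2 at 78.5 and 150 CPM (-0.93), and Scrg1 had 2 UMIs with and 230 without. Members were chosen by the rule genes, so the values of Hapln1 and Cnmd are only a description. Sox9 (-0.01) and Mki67 (0.02), a marker of dividing cells, had intervals that included 0. Runx2 was higher by only 0.42 (0.19 to 0.65), and 43.2% of all E12.5 members had a Runx2 UMI.

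At E15.5 members were split by Cytl1, again chosen after its values were seen, and 122 of 225 (54.2%) had a UMI, with median depths of 7666.5 and 7849 UMIs. Members with Cytl1 had 5513 CPM of Col2a1 and members without had 1114 CPM, a log2 ratio of 2.31 (2.21 to 2.40). Matn1 stood at 695 and 16.1 CPM (5.43), but it is a rule gene by which members were chosen, so its contrast is only a description. Fgfr3 stood at 56.3 and 4.03 CPM (3.81), Matn3 at 122 and 9.07 CPM (3.75), Comp at 201 and 30.2 CPM (2.74) and Wwp2 at 719 and 186 CPM (1.95). Epyc had 94 UMIs with and 1 without. Sox9 differed less (1066 and 675 CPM, 0.66), and Scrg1 (0.28) and Pthlh (0.25) had intervals that included 0. Members without Cytl1 had more Gdf5 (67.5 against 18.5 CPM), Sfrp2 (403 against 148 CPM), Col1a1, the type I collagen gene (2935 against 1516 CPM), and Mki67 (388 against 206 CPM). Cytl1 also followed the number of rule genes. E15.5 members with 4 or 5 had 215 CPM of Cytl1 and 1022 CPM of Col2a1, and those with 6 to 8 had 890 and 6618 CPM. The Schwann markers summed to 721 CPM in the first set and 20.3 CPM in the second. The part of such barcodes in the Cytl1 split was not tested.

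**Figure D4:**
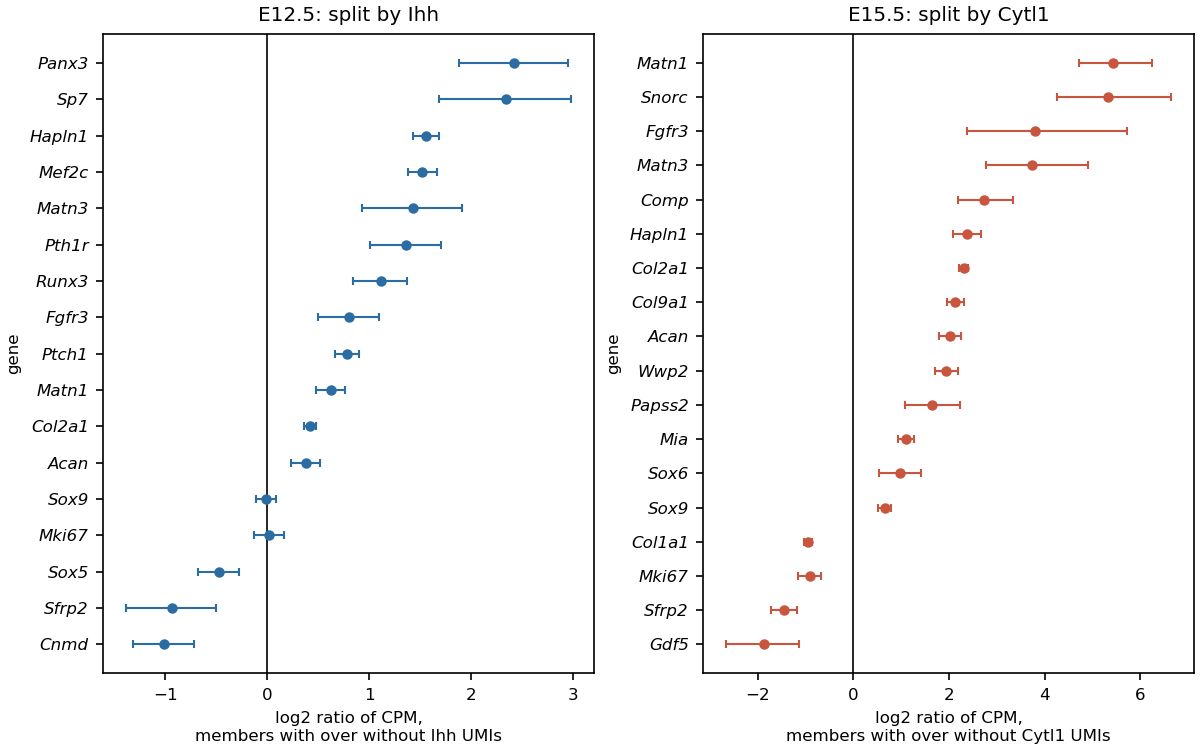
Log2 ratio of CPM in members with over members without a UMI of Ihh at E12.5 (left, 148 and 1539 members) and of Cytl1 at E15.5 (right, 122 and 103 members). Points are summed levels and bars are counting intervals. Panx3 and Sp7 lead the left panel at 2.42 and 2.34, and Matn1 leads the right at 5.43, with Gdf5 lowest at -1.87. Matn1, Snorc, Hapln1, Acan, Col9a1 and Cnmd are rule genes by which members were chosen, so their ratios are only a description.

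Genes for making and sulphating chondroitin chains had a lower sum at E15.5, carried by a few members of the list. The 17 genes summed to 1277 CPM at E12.5 against 670 CPM at E15.5, with a log2 ratio E15.5 over E12.5 of -0.93 (-1.02 to -0.85), but 10 of the 14 that passed the filter lay within 2-fold and the median gene ratio was -0.15, against -0.30 over all genes. The 4 that were at least 2-fold lower, against 13.9% of all genes, were Papss2, which makes the sulphate donor (362 and 74.2 CPM, -2.28), the sulphate transporter gene Slc26a2 (138 and 61.7 CPM, -1.16), and the chondroitin sulphotransferase genes Chst11 (108 and 36.6 CPM, -1.56) and Chst15 (49.2 and 14.5 CPM, -1.77). Ugdh, which makes a sugar precursor of the chains, stood at 282 and 153 CPM (-0.88). The list sum was -0.22 in other kept barcodes. In thinned members it was -0.45, and Slc26a2 (-0.53) and Chst15 (-0.92) then lay within 2-fold. With at least 6 rule genes Slc26a2 (-0.85) and Chst11 (-0.97) lay within 2-fold, and Papss2 was at -1.71 and Chst15 at -1.64.

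Collagen processing and secretion genes showed little difference between ages. Of 14, all passed the filter, 0 were at least 2-fold higher and 1 lower (against 6.86% and 13.9% of all genes), and the sum stood at 3287 and 3196 CPM (-0.04, -0.08 to 0.00). The lower gene was Sec23a, a coat protein of the transport vesicles that carry procollagen (104 and 46.7 CPM, -1.15), while Serpinh1, the collagen chaperone, stood at 971 and 1161 CPM (0.26). Glycolysis and hypoxia genes had a sum of 3664 and 3307 CPM (-0.15), with 1 of 13 at least 2-fold lower (against 13.9% of all genes). That gene was Pdk1 (78.5 and 31.3 CPM, -1.33), a kinase that holds pyruvate back from mitochondria. Pdk1 was -0.96 with at least 6 rule genes.

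Proliferation genes had a lower summed level at E15.5, while most of them lay within 2-fold. The 25 genes summed to 5198 CPM at E12.5 against 3617 CPM at E15.5 (-0.52, -0.56 to -0.49), and 20 of them lay within 2-fold. The other 5, against 13.9% of all genes, were lower: Mki67, Mcm3, Bub1, Cenpe and Rrm1. The median gene of the list was at -0.15 relative to the median of all genes, and Mcm3 was -0.90 with at least 6 rule genes. Mki67 stood at 678 and 293 CPM (-1.21, -1.34 to -1.09). In other kept barcodes the list stood at 4488 and 3359 CPM (-0.42). There 2 of 25 genes were at least 2-fold lower, against 1383 of all 9175 genes compared. Connective class barcodes outside the members had 4939 and 3031 CPM (-0.70), a larger fall than in members. In them 4 of 25 were at least 2-fold lower, against 1564 of 9098 genes. The list ratio in thinned members was -0.997. Of the early growth genes, Hmga2, a chromatin factor of embryonic cells, stood at 1281 and 199 CPM (-2.68, -2.83 to -2.54), and the RNA-binding genes Igf2bp1 (-2.02), Igf2bp3 (-1.48) and Igf2bp2 (-1.09) and the growth factor gene Igf2 (-1.19) were also lower. Dlk1, an imprinted inhibitor of differentiation, stood at 222 and 1047 CPM (2.24, 2.14 to 2.34). These genes had the same direction in other kept barcodes, where Hmga2 was -4.02, Igf2 -1.11 and Dlk1 3.05.

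The balance of forelimb and hindlimb genes in members differed between the libraries. Tbx5, the forelimb factor, had 372 UMIs at E12.5 against 17 at E15.5, and Tbx4, the hindlimb factor, had 283 and 72. The log2 ratio of Tbx5 over Tbx4 was 0.39 (0.17 to 0.62) at E12.5 against -2.08 (-2.94 to -1.30) at E15.5. In other kept barcodes it was 0.68 and 0.11. Tbx5 over Pitx1, the other hindlimb gene of the list, was -0.89 (-1.08 to -0.71) at E12.5 against -4.15 (-4.94 to -3.44) at E15.5. In other kept barcodes that pair was -1.55 and -2.80. Both pairs were lower at E15.5, but the sign at E12.5 depended on the pair. The limb of origin of single members is not labelled, and its part in the age differences was not tested.

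**Figure D5:**
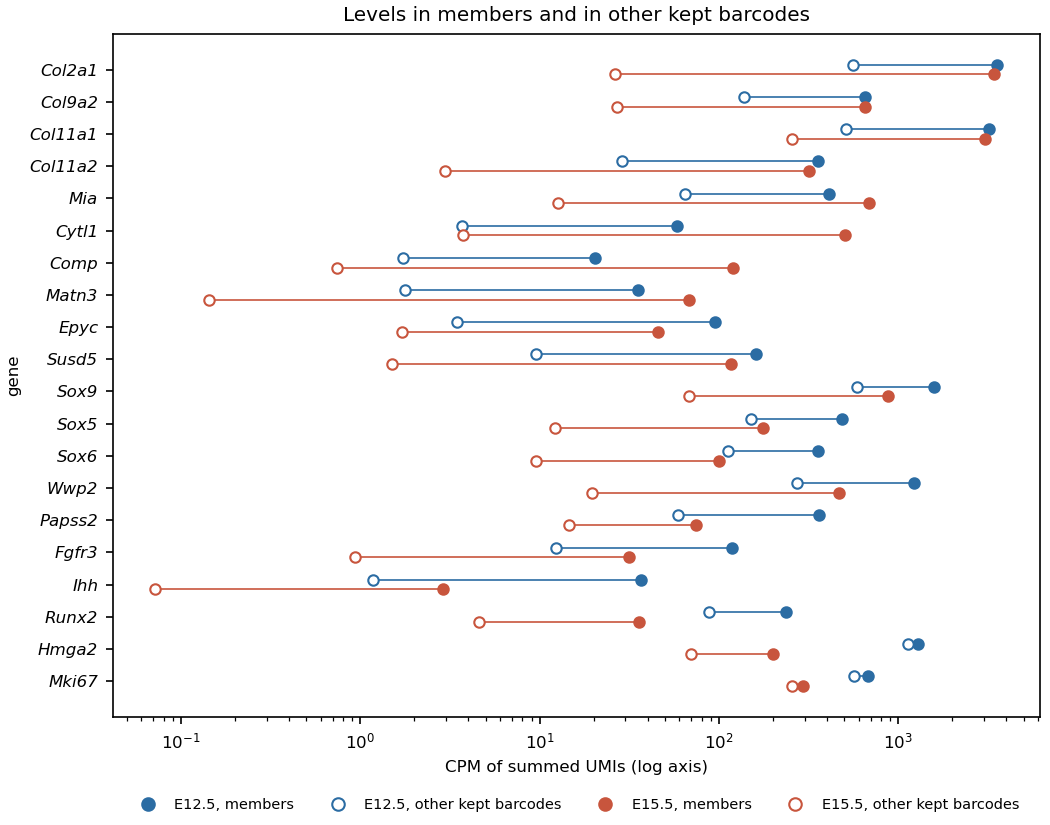
Level of 20 genes (CPM of summed UMIs, log axis) in members (filled) and in other kept barcodes (open) at E12.5 (blue) and E15.5 (red). For Col2a1 the members lie at 3566 and 3409 CPM, while other barcodes lie at 559 CPM at E12.5 against 26.4 CPM at E15.5.

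Against the other kept barcodes, 229 of 9126 genes (2.51%) were at least 2-fold higher in members at E12.5 and 274 (3%) lower, and at E15.5 481 of 8841 (5.44%) were higher and 421 (4.76%) lower. The rule used this contrast, so nothing is read from these counts. Of the 16 matrix genes outside the rule, 15 of the 15 that passed the filter for E12.5 and 15 of 16 for E15.5 were at least 2-fold higher in members. Beside cartilage matrix genes, the 20 genes with the highest ratio in both libraries held Pcolce2, an enhancer of procollagen processing (114 and 67.5 CPM in members), Cspg4, the NG2 proteoglycan (215 and 180 CPM), Gdf10, a BMP-like ligand (109 and 102 CPM), Rflna, a filamin regulator (83.8 and 112 CPM), and Mgp, the matrix Gla protein that inhibits calcification (180 and 747 CPM). They also held Sorbs2 and Tns2, of the cytoskeleton and cell adhesion, and Ccn2, a connective tissue growth factor.

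Of the 12 genes with the highest age ratio in members (mean of at least 50 CPM), several rested on few cells. Cpa3 and Cma1, proteases of mast cells, had no UMI in E12.5 members, and 370 and 340 UMIs at E15.5, of which 364 and 330 were in their highest member. Hbb-bs, an adult haemoglobin gene, had 2215 UMIs at E15.5 with 2044 in 1 member. Ednrb was 5.51 over all members and -0.86 in those with at least 6 rule genes, and Sostdc1, a BMP and Wnt antagonist, 4.76 and 2.52. Others were spread over many members. Ecrg4, a secreted peptide precursor, had 3 UMIs in 3 E12.5 members and 809 UMIs in 165 E15.5 members (73.3%), the 5 highest of which held 11.2%. Its level at E15.5 was 390 CPM in members, 125 CPM in other kept barcodes and 5.95 CPM in the immune class outside the members. Postn (periostin) stood at 20.3 and 661 CPM (5.02) and Col14a1, a fibril-associated collagen, at 9.63 and 243 CPM (4.66), with levels in other kept barcodes at E15.5 of 957 and 264 CPM. Tnfrsf12a, a receptor of the TNF family, stood at 3.75 and 108 CPM (4.85), against 13.3 CPM in other kept barcodes at E15.5. Htra1, Tm4sf1 and Abi3bp completed this end, with ratios of 4.78, 4.17 and 3.97.

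Col1a1, the main collagen of fibrous tissue and bone, had 1163 UMIs (207 CPM) in E12.5 members and 4555 UMIs (2195 CPM) in E15.5 members (3.40), and at 481 and 2517 CPM in other kept barcodes. At E15.5 it stood at 2707 CPM in members with 4 or 5 rule genes, 1506 CPM in those with 6 to 8 and 214 CPM in the muscle class outside the members. It was thus higher at E15.5 in both sets of members, and above the level in muscle cells. Dcn, the decorin gene of connective tissue, stood at 16.8 and 176 CPM in members, and at 64.5 and 909 CPM in others.

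Of the 12 genes with the lowest age ratio, the embryonic globins Hba-x (-8.59) and Hbb-y (-7.66) rested on few E12.5 members, the 5 highest of which held 83.1% and 84.9% of their UMIs. Ttn, the muscle gene titin, had 734 UMIs at E12.5, of which 54.2% lay in 5 members, and 22 UMIs at E15.5. The others were Asb4 (318 and 32.8 CPM, -3.28), Kif26b (204 and 23.1 CPM, -3.14), BC006965 (125 and 15.9 CPM, -2.97), Shox2, Runx2, Hmga2, the ephrin receptor gene Epha7 (177 and 29.9 CPM, -2.56), Sox11, a factor of progenitor cells (837 and 142 CPM, -2.56), and Peg10, an imprinted gene (379 and 66.0 CPM, -2.52). BC006965 lay far higher in members than in other kept barcodes at both ages (10.1 and 0.596 CPM in others). The genes of this paragraph other than the globins and Ttn were at least 2-fold lower at E15.5 also in members with at least 6 rule genes, from -2.16 for Peg10 to -3.17 for Epha7.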

How the data were processed

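The libraries were made from trypsin-dissociated limb cells with a 10x Chromium kit that reads transcript ends, per the labels' protocols. The authors deposited raw UMI counts for each gene and barcode, and per the file headers these came from Cell Ranger 4.0.0. The build mm10 and Seurat 4.3.0 are named in the submitters' processing notes. Of 32285 gene identifiers, 32235 were found in GENCODE vM21 (GRCm38), the source of gene positions. The deposited barcodes and gene lists carry no cell annotation, so members were found by the rule in the report.

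Members' counts were summed per library and scaled to CPM, with exact Poisson intervals, exact conditional intervals for ratios and Clopper-Pearson intervals for shares, at 95%. A ratio with a count of 0 was set at the floor of 3 counts and is a bound. Genes with a mean of at least 10 CPM over both ages were compared, and a 2-fold ratio counted as changed. Named genes were those of the marker and pathway lists, the 12 highest and 12 lowest age ratios at a mean of at least 50 CPM, and the 20 highest ratios of members over others with at least 50 CPM in both libraries. Some genes that these rules name are not reported here. The members, lists and rules were chosen with earlier results of these data known. Ratios, intervals and thinning were tested on simulated data.

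Doublets were left in and, as an alternative, the barcodes with the highest doublet scores were left out (1270 at E12.5, among them 316 members, and 190 at E15.5, among them 13 members), at 0.8% per 1000 barcodes. Other alternatives were thinning to 2000 UMIs, 3, 5 or 6 rule genes, stricter cell filters, male or female barcodes alone, equal weight per cell, other totals, centring on the median gene and other gene filters. The requirement of 6 rule genes, and leaving out members of another marker class, were chosen after seeing the data. The scripts ran in Python 3.11.15 with scipy 1.17.1, numpy 2.4.6, pandas 2.3.3, scikit-learn 1.9.0 and matplotlib 3.10.9.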

Additional observations from a re-analysis of the deposited data

Results flagged for a closer look

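Several age ratios had opposite signs in 2 sets of cells. None of these differences was tested, since each set is 1 library per age, and 1.00 on the log2 scale is a 2-fold ratio.

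The summed cartilage matrix genes outside the rule had a log2 ratio (E15.5 over E12.5) of -0.29 in male members and 0.25 in female members, and of 0.09 in members and -1.61 in other kept barcodes. There were 258 male and 961 female members at E12.5, and 30 and 165 at E15.5. Snorc had 70 UMIs in male members at E12.5 and none in the 30 male members at E15.5, a bound of -2.80, against 1.95 in female members, and it was 1.24 in members and -2.54 in other kept barcodes. Embryo, sex and depth cannot be told apart here.

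Another 5 genes were higher at E15.5 in members and lower in other kept barcodes. Comp had ratios of 2.56 and -1.23, Scrg1 of 1.55 and -2.36, Pthlh of 2.43 and -1.33, Gdf5 of 1.28 and -3.54, and Wif1 of 1.82 and -1.39. Other kept barcodes held 50 and 31 UMIs of Comp and 172 and 100 of Pthlh, so those ratios rest on few counts.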

How the results depend on the processing

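The share of members was lower at E15.5 under all 10 alternatives run for it. The difference moved beyond its interval to -9.56 points after thinning, -5.52 with 5 and -3.64 with 6 rule genes, -13.8 with 3, -7.05 without the highest doublet scores, -9.42 with at least 1000 genes and -9.56 in male barcodes. The matrix sum, with a main log2 ratio of 0.09, had no stable direction. It was 0.66 after thinning, 0.31 with 5 and 0.54 with 6 rule genes, 0.25 in female barcodes, 0.22 without members of another marker class, 0.39 relative to the median gene and 0.20 with a total free of ribosomal, mitochondrial and haemoglobin genes. It was 0.0029 without high doublet scores, and under 0 with 3 rule genes (-0.034), under 5% mitochondrial UMIs (-0.0086) and in male barcodes (-0.29). The hypertrophic sum stayed lower at E15.5, and moved to -1.54 after thinning, -1.24 with 3 rule genes, -1.52 without high doublet scores, -1.56 in male barcodes and -1.09 relative to the median gene. The chondroitin sum moved to -0.45 after thinning, -0.84 with 5 and -0.71 with 6 rule genes, -1.08 in male barcodes, -0.63 relative to the median gene and -0.82 with the other total. The proliferation sum moved to -0.997 after thinning, -0.69, -0.42 and -0.60 with 5, 3 and 6 rule genes, -0.48 without high doublet scores, -0.48 under 5% mitochondrial UMIs, -0.38 in male and -0.59 in female barcodes, -0.59 without members of another class, -0.22 relative to the median gene, -0.70 with equal weight per cell and -0.41 with the other total. These sums moved beyond their counting intervals in the settings named, and the cause was not tested.

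The counts of genes at least 2-fold higher and lower were 1015 and 568 relative to the median gene, 193 and 426 at a mean of at least 50 CPM, 2589 and 2694 with no filter beyond 3 UMIs, and 366 and 365 where the whole interval lay beyond 2-fold. After thinning 2016 genes were lower. The number of genes compared changes with the filter, so these counts are not shares of 1 total. Among the 64 named genes with a ratio of at least 2-fold, the sign changed in 3: Snorc was -2.80 in male barcodes, Npr3 was -0.33 without members of another class and -1.40 with 6 rule genes, and Ednrb was -0.86 with 6 rule genes. Genes within 2-fold are outside this count, and with 6 to 8 rule genes Col2a1 (0.52), Col11a1 (0.29), Col11a2 (0.38) and Acan (0.20) were above 0, each having been under 0 over all members. Acan is itself a rule gene, so its level with 6 to 8 of them is partly fixed by that choice. The E15.5 members, 225 in all and 104 after thinning, set the precision. No paired analysis was possible because each age has a single library.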
